A study of Danio rerio with 16 samples.

Results

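Keratins are the intermediate filament proteins of epithelia. The 10 genes described here are krt4, krt5, krt8, krt15, krt17, krt18a.1, krt18b, krt91, cyt1 and cyt1l, a list drawn up by gene name from the epidermal and epithelial keratins of the zebrafish (Danio rerio). All 10 were found among the 36109 gene symbols of the count table, and all 10 were among the 24084 genes that passed the filter on low counts. RNA of whole embryos was sequenced at 48 and 34 hours post-fertilisation (hpf), with 4 libraries in each of 4 groups. The knockout embryos carried a CRISPR/Cas9-mediated knockout of both hnf4a and hnf4b, nuclear receptor genes of liver, gut and yolk syncytial layer. The other embryos were their siblings, labelled as untreated, with no allele or dose of the mutations named for them. The 4 groups were thus knockouts of 48 hpf, siblings of 48 hpf, knockouts of 34 hpf and siblings of 34 hpf.

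A keratin filament is built from pairs of an acidic type I and a basic type II keratin, so that each epithelium makes at least 1 gene of either type. Of the 10 genes, 3 encode type II keratins (krt4, krt5 and krt8) and 7 encode type I keratins (krt15, krt17, krt18a.1, krt18b, krt91, cyt1 and cyt1l). The embryonic zebrafish epidermis has an outer periderm, where krt4 and cyt1 are strongly expressed, and a basal layer beneath it that rests on the basement membrane. In mammals keratin 8 and keratin 18 form the standard pair of simple, single-layered epithelia such as those of gut, liver and ducts. Also in mammals, keratin 5 is the type II keratin of basal epidermal cells and keratin 15 a type I partner of that layer. Keratin 17 is there a keratin of skin appendages and wounded skin.

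Separate clutches, the number of embryos pooled and the alleles are not stated in the labels. Every p-value below therefore rests on the scatter among these 16 libraries, which may be technical. The label for the batch is the stage itself, so stage and batch cannot be told apart. Total counts were 40677285 to 43194625 in knockouts and 36186542 to 38101069 in siblings at 48 hpf, and 34588058 to 41000857 in knockouts and 35586032 to 42407778 in siblings at 34 hpf. Knockout replicate 4 of 34 hpf stood apart, with a TMM scaling factor of 0.892 against 0.960 to 1.06 in the other 15 libraries, and keratin values that it moved most are given with and without it. Levels of hnf4a and hnf4b overlapped between the genotypes and so do not check the labels. At 48 hpf hnf4a was at 6.04 to 13.4 CPM in knockouts and 9.46 to 15.9 CPM in siblings, and hnf4b at 0.936 to 1.99 CPM in knockouts and 0.995 to 3.50 CPM in siblings. At 34 hpf hnf4a was at 7.08 to 18.4 CPM in knockouts and 10.8 to 14.99 CPM in siblings, and hnf4b at 0.925 to 3.2 CPM in knockouts and 1.66 to 8.50 CPM in siblings. CPM is the number of counts per 1e+06 counts of the TMM-scaled library size.

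The first question was which keratins differed between double knockouts and siblings. The neighbouring genes krt8 and krt18a.1 were higher in knockouts at both stages. Which epithelium held their transcripts was not tested. At 48 hpf krt18a.1 was 2.27-fold and krt8 1.81-fold higher, and at 34 hpf krt18a.1 was 1.76-fold and krt8 1.66-fold higher. A further pair, krt18b and krt4, passed the test at 48 hpf with changes of 1.3-fold and 1.25-fold. No keratin of the list was called lower in knockouts at either stage by edgeR or by DESeq2. At an unadjusted p below 0.05 edgeR had 1 lower gene, krt5 at 34 hpf, where 5600 of all 24084 genes tested had such a p in either direction. In whole embryos a change in the number of cells of a type and a change in RNA per cell cannot be told apart. This holds here and in every result that follows.

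Called means that edgeR's quasi-likelihood test gave a p below 0.05 after Benjamini-Hochberg adjustment across the 24084 genes. At 48 hpf 4 of the 10 keratins were called higher and 0 lower, where 4.76% of all genes tested were called higher and 5.28% lower. At 34 hpf 2 were called higher and 0 lower, against 4.09% of all genes higher and 5.21% lower. The knockout and sibling libraries did not overlap for 4 of the 10 keratins at 48 hpf, against 19.2% of all genes tested, and for 2 at 34 hpf, against 14.2%. These were the called genes, each with its knockout libraries above its sibling libraries. The median log2 fold change over the 10 keratins was 0.35 at 48 hpf and 0.11 at 34 hpf, beside 0.00 and 0.01 over all genes tested.

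**Figure D1:**
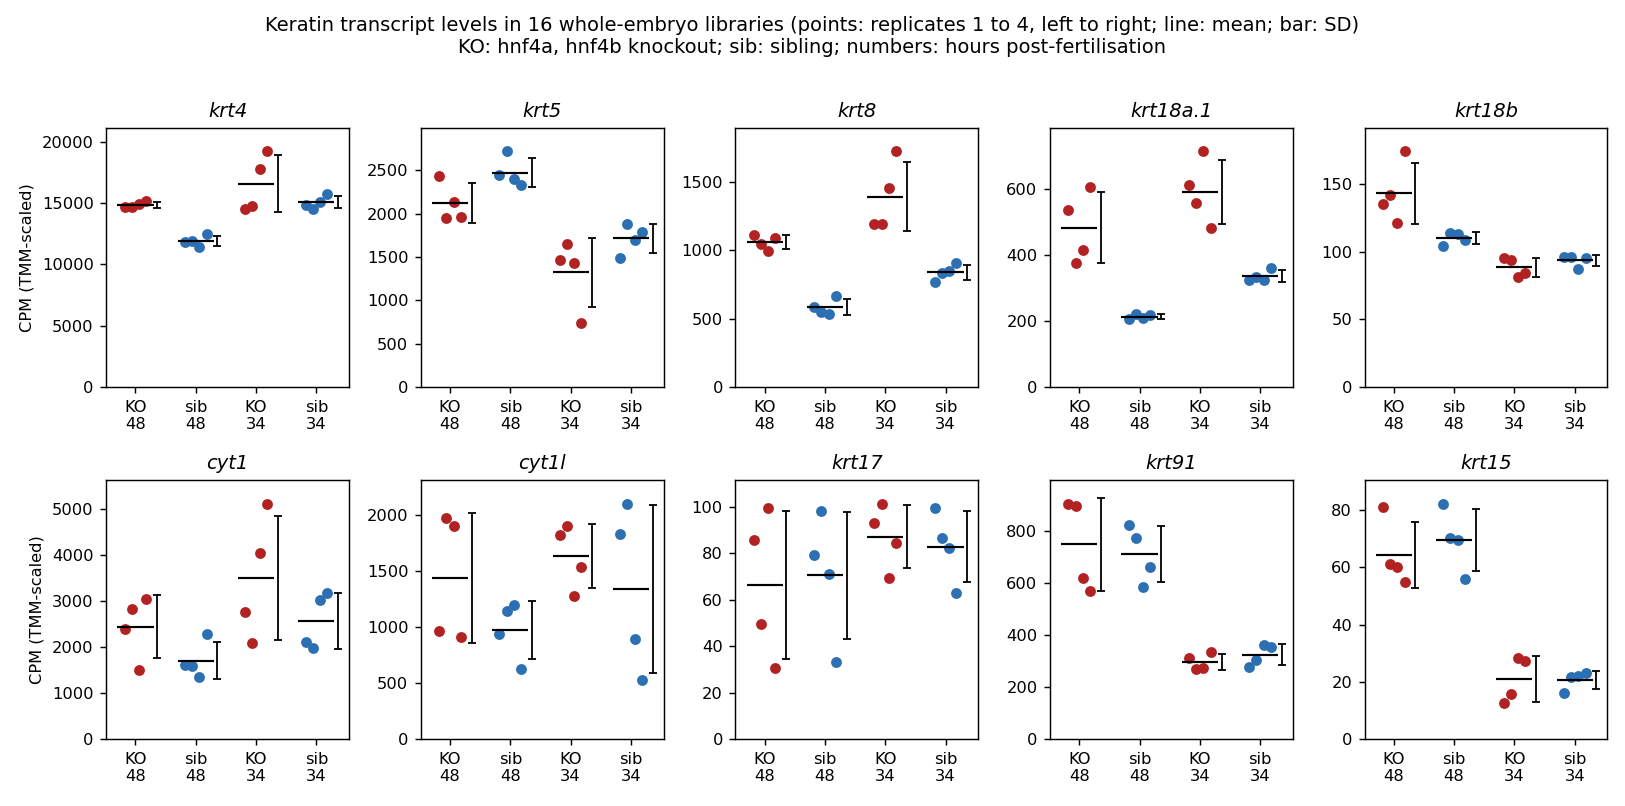
Level of each of the 10 keratins in the 16 libraries, in CPM on a linear axis from 0. Red points are knockout (KO) libraries and blue points sibling (sib) libraries in replicate order, black lines are group means and bars the SD over 4 libraries. For krt8 and krt18a.1 every knockout library lies above every sibling library of its stage, while the points of krt17 and cyt1l spread widely within groups.

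The krt8 gene encodes the type II partner of keratin 18. At 48 hpf it stood at 1113, 1051, 999 and 1088 CPM in the 4 knockout libraries, against 589, 547, 539 and 669 CPM in the 4 sibling libraries. The lowest knockout library lay well above the highest sibling library, and the log2 fold change was 0.86 ± 0.11 (SE), with adjusted p = 8.56e-05 (edgeR). At 34 hpf the values were 1197, 1196, 1455 and 1725 CPM in knockouts, against 771, 835, 853 and 905 CPM in siblings. The groups again did not overlap, and knockout replicates 3 and 4 were the highest of all 16 libraries. The log2 fold change at 34 hpf was 0.73 ± 0.11 (adjusted p = 0.00045, edgeR), and without knockout replicate 4 it was 0.61.

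The gene next to krt8 in the RefSeq annotation, krt18a.1, encodes a keratin 18, the type I partner. At 48 hpf it was at 538, 376, 415 and 606 CPM in knockouts, against 206, 221, 209 and 218 CPM in siblings. Sibling libraries lay within a narrow band, knockout libraries spread more widely, and all 4 knockouts were above all 4 siblings. The log2 fold change of 1.18 ± 0.14 (adjusted p = 2.97e-05, edgeR) was the largest of the 10 keratins in either knockout comparison. At 34 hpf krt18a.1 was at 613, 557, 715 and 482 CPM in knockouts, against 324, 334, 325 and 362 CPM in siblings, again without overlap. Its log2 fold change there was 0.82 ± 0.14 (adjusted p = 0.00102, edgeR), and 0.90 without knockout replicate 4. The calls of krt8 and krt18a.1 at both stages were kept when each library compared was left out in turn and under each of the 8 other processing settings.

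Because a filament takes both partners, the krt18a.1 counts per 100 krt8 counts were also taken in each library. This ratio is not corrected for gene length and compares libraries only. It was 48.4, 35.8, 41.5 and 55.7 in knockouts of 48 hpf, against 34.98, 40.4, 38.7 and 32.6 in siblings of 48 hpf. At 34 hpf it was 51.2, 46.6, 49.1 and 27.9 in knockouts, against 42.0, 40.0, 38.1 and 40.0 in siblings. The ratio overlapped between genotypes at both stages, and it varied more in knockouts. Its SD was 8.61 in knockouts and 3.55 in siblings at 48 hpf, and 10.7 in knockouts and 1.59 in siblings at 34 hpf. The 27.9 of knockout replicate 4 was the lowest of the 16 libraries. At 34 hpf the overlap rested on it alone, since the other knockout values, 46.6 to 51.2, were above all sibling values, 38.1 to 42.0. The SD of 10.7 includes it.

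A further keratin 18 gene, krt18b, was called in the knockout comparison at 48 hpf only. At 48 hpf it was at 135, 142, 121 and 174 CPM in knockouts, against 104, 114, 113 and 109 CPM in siblings. Every knockout library was above every sibling library, with a log2 fold change of 0.38 ± 0.10 (adjusted p = 0.0183, edgeR). At 34 hpf it was at 95.1, 93.6, 81.0 and 84.2 CPM in knockouts, against 95.9, 95.7, 87.2 and 95.5 CPM in siblings, and the log2 fold change of -0.08 ± 0.10 did not pass the test (adjusted p = 0.683). The difference between the stages in the knockout effect was 0.46 ± 0.14 on the log2 scale, with an unadjusted p of 0.00361 and an adjusted p of 0.29 (edgeR), so the effect was not shown to differ between stages. At 48 hpf the call was lost without sibling replicate 1 (log2 fold change 0.32, adjusted p = 0.0813) and without knockout replicate 4 (0.27, adjusted p = 0.0655).

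The periderm keratin krt4 took the most counts of the 10 genes. At 48 hpf it stood at 14678, 14643, 14933 and 15148 CPM in knockouts, against 11855, 11912, 11429 and 12471 CPM in siblings. The values were tight within each genotype and the groups were apart, with a log2 fold change of 0.32 ± 0.08 (adjusted p = 0.0211, edgeR). At 34 hpf it was at 14540.1, 14764, 17801 and 19207 CPM in knockouts, against 14853, 14535, 15122 and 15703 CPM in siblings. Knockout replicates 3 and 4 were high and replicates 1 and 2 lay within the sibling range, and the log2 fold change of 0.14 ± 0.08 did not pass the test (adjusted p = 0.34), nor without knockout replicate 4 (0.06). The call at 48 hpf was lost when sibling replicate 1, 2 or 3 or knockout replicate 1 or 4 was left out, with log2 fold changes between 0.28 and 0.34 and adjusted p up to 0.0809 over the 8 libraries left out.

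Together the 10 keratins took 2.42 ± 0.05% of all counts in knockouts and 1.91 ± 0.06% in siblings at 48 hpf (mean ± SD, n = 4). At 34 hpf they took 2.51 ± 0.18% in knockouts and 2.16 ± 0.04% in siblings. Most of these counts were of krt4, which made up between 61.0% and 68.3% of them over the 16 libraries, as counts and not per length. No test was made on the sum.

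The type II keratin krt5 had the opposite sign from krt4 in the knockout comparisons, without passing the test. At 48 hpf it was at 2437, 1956, 2139 and 1957 CPM in knockouts, against 2450.4, 2719, 2395 and 2331 CPM in siblings. Knockout replicate 1 lay within the sibling range and the other 3 knockouts below it (log2 fold change -0.22 ± 0.17, adjusted p = 0.482, edgeR). At 34 hpf it was at 1468, 1652, 1435 and 743 CPM in knockouts, against 1487, 1883, 1701 and 1793 CPM in siblings. Knockout replicate 4 was the lowest of all libraries, and the log2 fold change was -0.37 ± 0.17 (adjusted p = 0.199) with it and -0.18 (adjusted p = 0.256) without it. Between libraries of the same replicate number the knockout was the lower in every pair at both stages. None of the 8 other processing settings gave a call for krt5 at either stage.

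The krt5 counts per 100 krt4 counts, again a ratio for comparing libraries only, were 16.6, 13.4, 14.3 and 12.9 in knockouts of 48 hpf, against 20.7, 22.8, 21.0 and 18.7 in siblings of 48 hpf, without overlap. At 34 hpf they were 10.1, 11.2, 8.06 and 3.87 in knockouts, against 10.01, 13.0, 11.2 and 11.4 in siblings, with overlap. This ratio was formed after the values of both genes had been seen, so it is given as a description with no test.

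**Figure D2:**
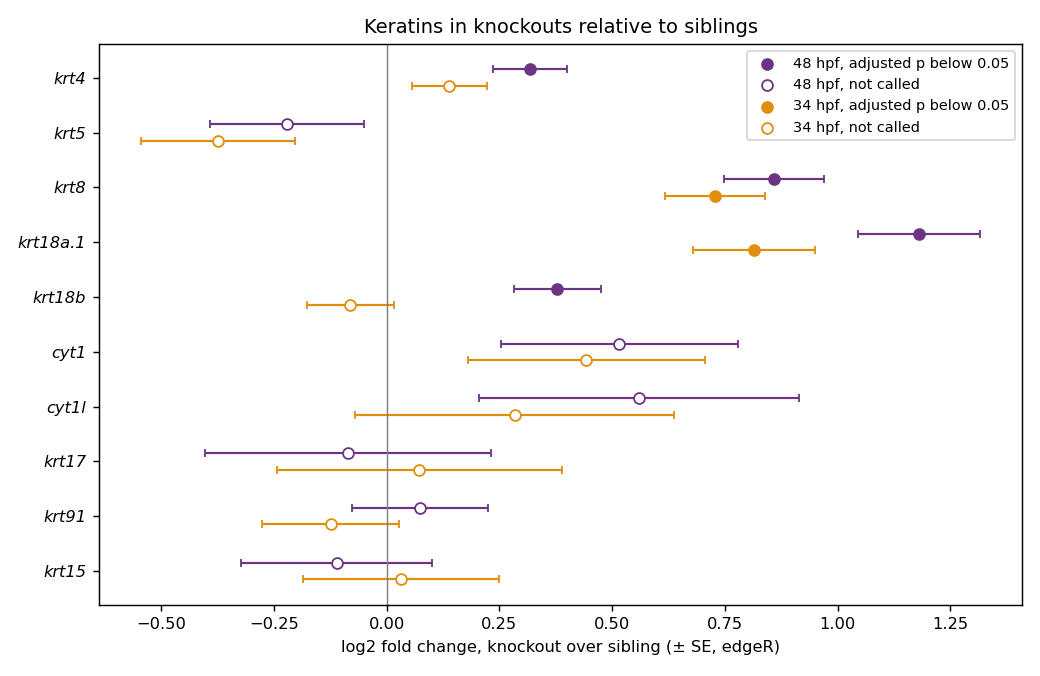
Log2 fold change, knockout over sibling, of each keratin at 48 hpf (purple) and 34 hpf (orange), with the standard error from edgeR as bars. Filled points passed an adjusted p of 0.05, which at 48 hpf were krt4, krt8, krt18a.1 and krt18b and at 34 hpf krt8 and krt18a.1; krt5 lies left of 0 at both stages and was not called.

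The remaining type I keratins cyt1 and cyt1l are neighbours in the RefSeq annotation with no protein-coding gene between them. The cyt1 gene encodes the type I keratin of the periderm, and cyt1l is named for its likeness to it. At 48 hpf cyt1 stood at 2402, 2834, 1499.6 and 3053 CPM in knockouts, against 1606, 1590.4, 1362 and 2288 CPM in siblings. The groups overlapped, and the log2 fold change of 0.52 ± 0.26 did not pass the test (adjusted p = 0.251, edgeR). With the replicate block, which compares same-numbered knockout and sibling libraries, it was 0.49 with adjusted p = 0.0213 (edgeR), and cyt1 was higher in the knockout of each of the 4 pairs. At 34 hpf cyt1 was at 2760.3, 2083, 4055 and 5119 CPM in knockouts, against 2118, 1996, 3029 and 3171 CPM in siblings. The knockout was again the higher of each pair, with a log2 fold change of 0.44 ± 0.26 (adjusted p = 0.34) and, with the replicate block, an adjusted p of 0.0598. Without knockout replicate 4 the log2 fold change was 0.20.

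For cyt1l the values at 48 hpf were 970.4, 1979, 1903 and 915 CPM in knockouts, against 944, 1143, 1203 and 626 CPM in siblings. At 34 hpf they were 1822, 1904, 1278 and 1535 CPM in knockouts, against 1837, 2104, 896 and 534 CPM in siblings. The spread within groups was wide, and the log2 fold changes of 0.56 ± 0.36 at 48 hpf (adjusted p = 0.375) and 0.28 ± 0.35 at 34 hpf (adjusted p = 0.70) did not pass the test in edgeR. As with cyt1, the knockout was the higher of each same-numbered pair at 48 hpf. At 34 hpf it was the lower in replicates 1 and 2. With the replicate block cyt1l was called at neither stage.

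Within groups cyt1 and cyt1l ran against each other. In siblings of 34 hpf, replicates 1 and 2 were low in cyt1 and high in cyt1l, and replicates 3 and 4 were high in cyt1 and low in cyt1l. The share of cyt1 in the summed CPM of both genes ranged between 44.1% and 85.6% over the 16 libraries. The coefficient of variation of the sum was 17.3% in knockouts of 48 hpf, beside 28.1% for cyt1 and 40.1% for cyt1l. In knockouts of 34 hpf it was 22.4%, beside 38.6% for cyt1 and 17.5% for cyt1l. In siblings of 48 hpf it was 6.33%, beside 23.4% for cyt1 and 26.6% for cyt1l, and in siblings of 34 hpf it was 4.15%, beside 23.6% for cyt1 and 55.7% for cyt1l. The sum thus varied less than either gene in 3 of the 4 groups, and in knockouts of 34 hpf it varied more than cyt1l.

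The summed level at 48 hpf was 3373, 4813, 3403 and 3968 CPM in knockouts, against 2550.1, 2733, 2565 and 2913 CPM in siblings, and the groups did not overlap. At 34 hpf it was 4583, 3988, 5333 and 6654 CPM in knockouts, against 3954, 4099, 3925 and 3706 CPM in siblings, with overlap. The sum was formed after the opposite movement had been seen, and it is given without a test. How the counting treated reads that match both genes is not given in the sources used here, so the division of counts between cyt1 and cyt1l is uncertain.

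**Figure D3:**
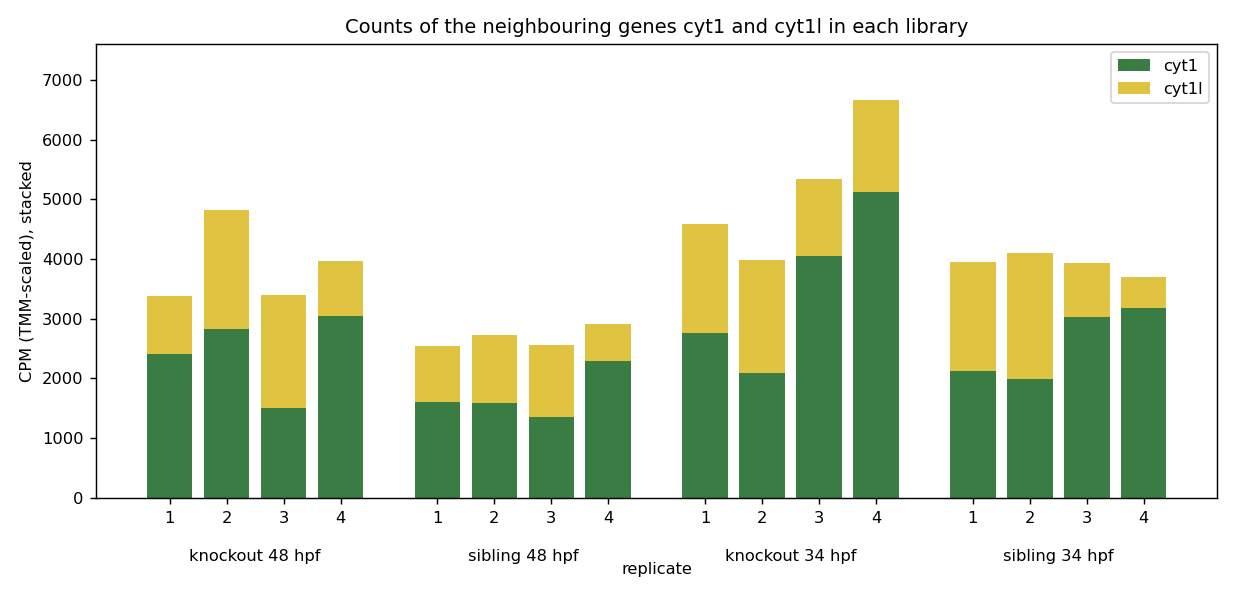
Stacked CPM of cyt1 (green) and cyt1l (yellow) in each library, on a linear axis from 0, by group and replicate. Among siblings the stack heights lie between 2550.1 and 2913 CPM at 48 hpf and between 3706 and 4099 CPM at 34 hpf, while the division between the colours changes from library to library.

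The type I keratins krt17, krt91 and krt15 did not pass the test in either knockout comparison. At 48 hpf krt17 was at 85.8, 49.6, 99.3 and 30.6 CPM in knockouts, against 79.2, 98.1, 71.2 and 33.1 CPM in siblings, with replicate 4 the lowest in both genotypes. At 34 hpf it was at 92.9, 101, 69.4 and 84.5 CPM in knockouts, against 99.6, 86.4, 82.4 and 62.7 CPM in siblings. In edgeR its log2 fold change at 48 hpf was -0.09 ± 0.32 (adjusted p = 0.91) and that of 34 hpf 0.07 ± 0.32 (adjusted p = 0.929), and both changed sign when single libraries were left out. The corresponding values of krt91 were 0.07 ± 0.15 (adjusted p = 0.829) and -0.12 ± 0.15 (adjusted p = 0.694). Those of krt15 were -0.11 ± 0.21 (adjusted p = 0.815) and 0.03 ± 0.22 (adjusted p = 0.955). With a standard error of 0.32, the p-values of krt17 do not show that it was unaffected.

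The next question was whether the knockout effect differed between the stages. None of the 10 keratins was called in the difference of the effects, where 0.203% of all genes tested were called, and DESeq2 also called 0. At an unadjusted p below 0.05, edgeR had 1 of the 10, which was krt18b, beside 1777 of all 24084 genes tested. For krt18a.1 the difference was 0.37 ± 0.19 (adjusted p = 0.748) on the log2 scale, for krt4 0.18 ± 0.12 (adjusted p = 0.856) and for krt8 0.13 ± 0.16 (adjusted p = 0.959). Without knockout replicate 4 of 34 hpf it was 0.26 for krt4 and 0.25 for krt8, neither of them called. The larger number of keratins called at 48 hpf is therefore not a tested difference between stages.

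The keratins also changed with stage, and in both directions. Higher at 48 than at 34 hpf in both genotypes were krt15, krt91 and krt5. The keratin gene krt8 was lower at 48 hpf in both genotypes. In knockouts 4 of the 10 keratins were called higher at 48 hpf and 1 lower, where 15.5% of all genes tested were called higher and 12.1% lower. In siblings 3 were called higher and 3 lower, where 18.3% of all genes were called higher and 15.7% lower. Both stage comparisons are also comparisons of the labelled batches.

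The largest stage effect was that of krt15. It was at 81.0, 61.4, 60.1 and 54.8 CPM in knockouts of 48 hpf, against 12.8, 15.8, 28.5 and 27.5 CPM in knockouts of 34 hpf. In siblings it was at 82.2, 70.3, 69.4 and 55.9 CPM at 48 hpf, against 16.02, 21.7, 22.04 and 23.02 CPM at 34 hpf. Every library of 48 hpf was above every library of 34 hpf, a rise of 3.04-fold in knockouts (log2 fold change 1.60 ± 0.22, adjusted p = 3.3e-05) and of 3.36-fold in siblings (1.75 ± 0.22, adjusted p = 8.5e-06, both edgeR).

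Next came krt91, at 905, 897, 621 and 571 CPM in knockouts of 48 hpf, against 312, 270.5, 275 and 336 CPM in knockouts of 34 hpf. In siblings it was at 823, 773, 587 and 662 CPM at 48 hpf, against 277, 307, 361 and 356 CPM at 34 hpf. The stages did not overlap in either genotype, and krt91 rose 2.51-fold in knockouts (log2 fold change 1.33 ± 0.15, adjusted p = 6.21e-06) and 2.19-fold in siblings (1.13 ± 0.15, adjusted p = 1.89e-05). In the knockouts of 48 hpf replicates 1 and 2 were high and 3 and 4 low, and in siblings of 48 hpf replicates 1 and 2 were likewise the higher.

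For krt5, whose values are given above, the rise was 1.60-fold in knockouts (log2 fold change 0.68 ± 0.17, adjusted p = 0.00671) and 1.44-fold in siblings (0.53 ± 0.17, adjusted p = 0.0242, both edgeR). The call in siblings was lost without sibling 34 hpf replicate 1 or 3 or sibling 48 hpf replicate 2, with log2 fold changes between 0.47 and 0.58 over the 8 libraries left out. Without knockout replicate 4 of 34 hpf the rise in knockouts was 0.48 on the log2 scale (adjusted p = 0.00111). For krt18b the rise in knockouts was 1.62-fold (0.69 ± 0.10, adjusted p = 3.98e-05), and in siblings the log2 fold change of 0.23 ± 0.10 did not pass the test (adjusted p = 0.0713), although all 4 sibling libraries of 48 hpf were above those of 34 hpf.

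Lower at 48 than at 34 hpf were krt8 in knockouts, and krt18a.1, krt8 and krt4 in siblings. In knockouts krt8 had a log2 fold change of -0.39 ± 0.11 (adjusted p = 0.0131, edgeR), without overlap between the stages. It was -0.27 without knockout replicate 4 of 34 hpf and still called, and the call was lost with only the libraries compared. For krt18a.1 the value in knockouts was -0.29 ± 0.13 (adjusted p = 0.123), and it passed without knockout replicate 4 of 34 hpf (-0.38, adjusted p = 0.0407) or knockout replicate 4 of 48 hpf. For krt4 it was -0.16 ± 0.08 (adjusted p = 0.172), and -0.080 without knockout replicate 4 of 34 hpf. In siblings krt18a.1 had -0.66 ± 0.14 (adjusted p = 0.00103), krt8 -0.52 ± 0.11 (adjusted p = 0.00127) and krt4 -0.34 ± 0.08 (adjusted p = 0.00411), each without overlap between the stages. Whether these stage effects differ between the genotypes is the same test as the difference of the knockout effects above, where no keratin was called. By group means krt8 averaged 1063 CPM in knockouts of 48 hpf, above the 841 CPM of siblings of 34 hpf and the 586 CPM of siblings of 48 hpf, and below the 1393 CPM of knockouts of 34 hpf.

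For cyt1 the stage effect was -0.52 ± 0.26 (adjusted p = 0.161) in knockouts and -0.59 ± 0.26 (adjusted p = 0.0958) in siblings, and for cyt1l -0.18 ± 0.35 (adjusted p = 0.755) and -0.46 ± 0.35 (adjusted p = 0.36). Without knockout replicate 4 of 34 hpf the value of cyt1 in knockouts was -0.28 (adjusted p = 0.477). The value of cyt1 in siblings passed the test without sibling replicate 4 of 48 hpf. For krt17 it was -0.39 ± 0.32 (adjusted p = 0.397) in knockouts and -0.23 ± 0.32 (adjusted p = 0.624) in siblings.

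**Figure D4:**
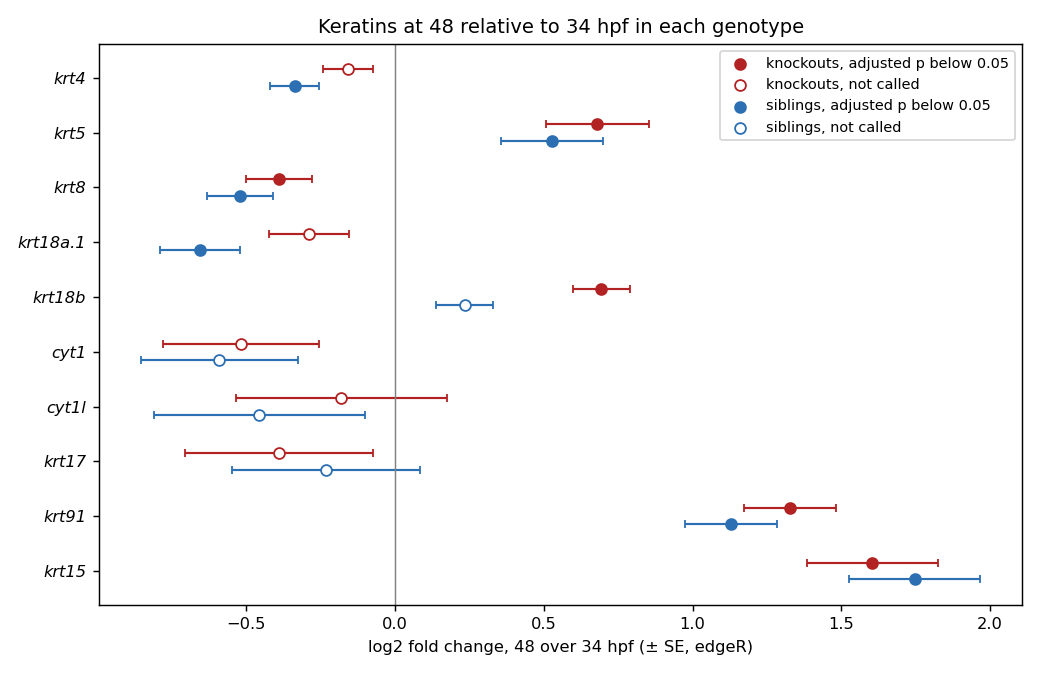
Log2 fold change, 48 over 34 hpf, of each keratin in knockouts (red) and siblings (blue), with the standard error from edgeR as bars; filled points passed an adjusted p of 0.05. The values run from -0.66 for krt18a.1 in siblings to 1.75 for krt15 in siblings, and no keratin lies on opposite sides of 0 in the 2 genotypes.

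The scatter among replicates was also compared between members, and some pairs varied together while others ran against each other. Pearson correlations were taken over the 16 libraries after each group's mean log2 CPM had been subtracted, which leaves the scatter within groups, and they are descriptions since libraries share depth and scaling. The scatter of krt8 followed that of krt4 (r = 0.89, and 0.79 without knockout replicate 4 of 34 hpf) and that of cyt1 (r = 0.84, and 0.80 without it). With krt18a.1 the correlation of krt8 was 0.00 over all 16 libraries and 0.50 without that library. The correlation of cyt1 with cyt1l was -0.65, and -0.72 without it, and that of krt17 with cyt1 was -0.68. For krt4 and krt5 it was -0.70 with that library and -0.23 without it.

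Over all 16 libraries and the 12644 genes whose mean log2 CPM reached 3, the 5 genes outside the keratins whose log2 CPM was most like that of each leading keratin were also taken. For krt8 these were xpnpep1 (r = 0.97), carhsp1 (0.97), lpar2b (0.97), gfer (0.96) and ponzr5 (0.95). For krt4 they included cyr61l2 (r = 0.97) and the ribosomal protein genes rpl8 (0.97), rpl10 (0.97) and rpl3 (0.97). For krt5 they were KCTD15 (r = 0.97), apc (0.97), ca16b (0.97), slc38a2 (0.97) and dnm1a (0.96). For cyt1 the nearest was si:ch211-150o23.2 (r = 0.93), followed by ppp1r13ba (0.90), si:dkey-16l2.16 (0.90), tpd52l2a (0.89) and ppp1cb (0.88). These correlations hold the stage and genotype effects as well as the scatter and carry no test.

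The keratin genes are arranged in clusters, which matters for the counts of close copies. In the RefSeq annotation krt5, krt8, krt18a.1 and krt18a.2 follow one another with no protein-coding gene between. In the same way krt1-19d, krtt1c19e (there named krt1-19e), krt92, cyt1l, cyt1, krt17 and krt91 follow one another. The genes krt93, krt94, krt98, krt15 and krt99 form a further run, and krt222, krt97 and krt96 a shorter one. Between krt4 and krt18b lies 1 other protein-coding gene. In the knockout comparisons the neighbours krt8 and krt18a.1 were both called at both stages and krt5 beside them at neither. At 48 hpf krt4 and krt18b were both called, and of cyt1l, cyt1, krt17 and krt91 none was called at either stage. In the same run krt92 was called higher at 34 hpf and not at 48 hpf, and krt1-19d and krtt1c19e at neither. Of the further run krt94 was called higher at both stages, and krt98, krt15 and krt99 at neither. Of the shorter run krt97 was called higher at 48 hpf and not at 34 hpf, and krt222 and krt96 at neither.

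Of the 13 other keratin symbols in the table, 10 passed the filter, and krt18a.2 was among those that did not. At 48 hpf 2 were called higher and 1 lower in knockouts, beside 4.76% and 5.28% of all genes tested, and at 34 hpf 2 were called higher, beside 4.09%. For krt97 the values at 48 hpf were 264, 212, 184 and 219 CPM in knockouts, against 118, 125, 122 and 141 CPM in siblings, with all knockouts above all siblings. Its log2 fold change was 0.80 ± 0.16 (adjusted p = 0.00333, edgeR), kept in each of the 8 fits with a library left out, and at 34 hpf it was 0.46 ± 0.16 (adjusted p = 0.0728). The keratin gene krt94 had 0.69 ± 0.20 at 48 hpf (adjusted p = 0.0402) and 0.75 ± 0.20 at 34 hpf (adjusted p = 0.0291), and each call was lost in 6 of 8 fits with a library left out. At 48 hpf krt1-c5 was lower in knockouts (-0.54 ± 0.14, adjusted p = 0.0211), lost without sibling replicate 3 or knockout replicate 4. At 34 hpf krt92 was higher (0.46 ± 0.13, adjusted p = 0.0347), lost in 5 of 8 fits.

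The count of these other keratins called at 34 hpf, 2 in all, depended on the setting. It was 5 with the replicate block and with DESeq2, 4 with upper quartile scaling, 1 with limma-voom and 0 with only the libraries compared, and 0 without sibling replicate 2, 3 or 4 or knockout replicate 3. At 48 hpf the count of 3 was 1 without sibling replicate 3. The share of all genes called was taken for the main edgeR fit of all 16 libraries only. How far these counts follow that share under each setting was therefore not examined. For krtt1c19e, the type I keratin that marks basal epidermal cells in zebrafish, the log2 fold change in knockouts was -0.40 ± 0.18 at 48 hpf (adjusted p = 0.193) and -0.52 ± 0.18 at 34 hpf (adjusted p = 0.0861), the same sign as krt5. It rose with stage like krt15 and krt91, by 1.66 ± 0.19 (adjusted p = 4.64e-06) in knockouts and 1.53 ± 0.19 (adjusted p = 5.53e-06) in siblings on the log2 scale. In contrast krt92, its near neighbour, fell with stage by 1.5 in knockouts and by 1.37 in siblings on the log2 scale.

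To set the keratins beside other genes of the same tissues, 10 lists of epithelial and non-epithelial genes were described by their called members and medians. Of all genes tested, 4.76% were called higher and 5.28% lower in knockouts at 48 hpf, and 4.09% higher and 5.21% lower at 34 hpf, and each list's counts stand beside these shares. The junction and adhesion list had the most called members among the epithelial lists. At 48 hpf 6 of its 15 tested genes were called higher in knockouts and 0 lower, with a median log2 fold change of 0.37, and at 34 hpf also 6 higher and 0 lower, with a median of 0.38. The tight junction gene oclna was called at both stages, with 0.51 ± 0.09 at 48 hpf (adjusted p = 0.00227) and 0.61 ± 0.09 at 34 hpf (adjusted p = 0.000504), kept with each library left out. The protease inhibitor gene spint1a and the junctional adhesion gene f11r.1 were also called at both stages. At 48 hpf the spint1a call was lost in 7 of 8 fits with a library left out, with DESeq2 size factors in edgeR and with no filter on low counts. The f11r.1 call was lost in 3 of 8 such fits at 48 hpf, and at 34 hpf without sibling replicate 2 and with only the libraries compared. The junction and adhesion list's summed level was 965 to 1406 CPM in knockouts and 801 to 879 CPM in siblings at 48 hpf. At 34 hpf it was 1172 to 1456 CPM in knockouts and 955 to 1041 CPM in siblings, without overlap at either stage. At 48 hpf the epithelial adhesion genes epcam (0.54 ± 0.16, adjusted p = 0.0407) and cdh1 (0.56 ± 0.17, adjusted p = 0.0497) passed narrowly. The count at 48 hpf was 1 without sibling replicate 1 or 2 or knockout replicate 1, and 2 without sibling replicate 3 or 4 or knockout replicate 4. With DESeq2 size factors in edgeR it was 3. The count at 34 hpf was 3 without sibling replicate 2, 4 without sibling replicate 1, 3 or 4, and 3 with only the libraries compared. No share of all genes called was taken under these other settings.

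Of 16 periderm genes 1 was called at each stage, a share near that of all genes, and in both cases it was the claudin cldne, higher in knockouts at 48 hpf (0.44 ± 0.12, adjusted p = 0.0245) and at 34 hpf (0.50 ± 0.12, adjusted p = 0.0123). The call at 48 hpf was lost with the replicate block (adjusted p = 0.0551), without sibling replicate 1 or 2, and without knockout replicate 1 (0.25). The median of the periderm list was 0.27 at 48 hpf and 0.11 at 34 hpf. Its summed level was 2327 to 2693 CPM in knockouts and 2123 to 2450.2 CPM in siblings at 48 hpf, and 2899 to 3690.3 CPM in knockouts and 2757 to 3261 CPM in siblings at 34 hpf, with overlap at both stages.

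Of 16 basal epidermis genes 2 were called higher at 48 hpf, the claudin cldni (0.36 ± 0.10, adjusted p = 0.03) and the Notch ligand jag2b (0.27 ± 0.08, adjusted p = 0.0421), and 1 at 34 hpf, fermt1, which encodes an integrin-binding kindlin (0.28 ± 0.08, adjusted p = 0.0288). With the replicate block none of these 3 passed, with adjusted p of 0.0776, 0.0687 and 0.0603. With single libraries left out the calls of cldni and jag2b were each lost in 6 of 8 fits and that of fermt1 in 4 of 8, and cldni was lowest at 0.23. The basal list's median was 0.16 at 48 hpf, with 5 of 16 genes below 0, and -0.04 at 34 hpf, with 9 of 16 below 0. The collagen gene col17a1a was not called. It averaged 163 CPM in knockouts and 238 CPM in siblings at 48 hpf, and 36.4 and 61.6 CPM at 34 hpf. The list's summed level overlapped between the genotypes, at 1547 to 1739.6 CPM in knockouts and 1555 to 1724 CPM in siblings at 48 hpf, and 1284 to 1928 CPM in knockouts and 1638 to 1771 CPM in siblings at 34 hpf. Of 11 desmosome and plakin genes 2 were called higher at each stage, the plakophilin pkp1b (0.58 ± 0.11 at 48 hpf, adjusted p = 0.00316, and 0.55 ± 0.11 at 34 hpf, adjusted p = 0.0047) and the desmoglein dsg2.1. The pkp1b calls were kept with each library left out. The dsg2.1 call was lost in 5 of 8 such fits at 48 hpf and in 7 of 8 at 34 hpf, and its 0.53 at 48 hpf became 0.34 without knockout replicate 1.

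Of 19 epithelial transcription factor genes, elf3 and the splicing regulator gene esrp2 were called higher at both stages. The list's median was 0.21 at 48 hpf and 0.15 at 34 hpf. Its summed level at 48 hpf was lower in knockouts, at 585 to 637 CPM against 660 to 680 CPM in siblings. At 34 hpf the sum was higher in knockouts, at 566 to 646 CPM against 530 to 556 CPM in siblings. The groups did not overlap at either stage. For elf3 the log2 fold change was 1.19 ± 0.30 at 48 hpf (adjusted p = 0.0193) and 1.08 ± 0.31 at 34 hpf (adjusted p = 0.0353). At 48 hpf it was 0.67 (adjusted p = 0.0809) without knockout replicate 1, and the call was also lost without sibling replicate 2 or 4. The call at 34 hpf was lost with limma-voom (adjusted p = 0.0721) and in 4 of 8 fits with a library left out (adjusted p up to 0.138). For esrp2 it was 0.35 ± 0.08 (adjusted p = 0.0111) and 0.44 ± 0.08 (adjusted p = 0.00226), and the call at 48 hpf was lost without sibling replicate 2. Both tfap2c (-0.54 ± 0.08, adjusted p = 0.000397) and tfap2a (-0.41 ± 0.08, adjusted p = 0.00285), AP-2 factors of epidermis and neural crest, were lower in knockouts at 48 hpf, with all 4 knockouts below all 4 siblings. At 34 hpf neither passed, at 0.11 ± 0.08 and -0.03 ± 0.08. The difference between stages was called for tfap2c (-0.65 ± 0.12, adjusted p = 0.0228) and not for tfap2a (-0.38 ± 0.11, adjusted p = 0.289).

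Further cell types that could hold keratin transcripts, in the skin or elsewhere, were described in the same way. Of 13 ionocyte genes 3 were called higher at 48 hpf and 1 at 34 hpf, and the calcium channel gene trpv6 was among them at both stages (1.12 ± 0.21, adjusted p = 0.00202, and 1.04 ± 0.20, adjusted p = 0.00381). The other calls at 48 hpf were ca15a (0.63 ± 0.18, adjusted p = 0.0342), lost in 5 of 8 fits with a library left out, and atp2b1a (0.35 ± 0.10, adjusted p = 0.0263), lost in 7 of 8 and with the replicate block (adjusted p = 0.0606). The ionocyte list's summed level was 518 to 662 CPM in knockouts and 450.5 to 527 CPM in siblings at 48 hpf, and 431 to 514 CPM in knockouts and 502 to 539 CPM in siblings at 34 hpf, with overlap at both stages. The carbonic anhydrase gene ca2 was at 156 to 227 CPM in knockouts and 257 to 275 CPM in siblings at 34 hpf, without overlap, and did not pass the test (-0.48 ± 0.17, adjusted p = 0.0936). Its level at 48 hpf was 195 to 372 CPM in knockouts and 187 to 254 CPM in siblings. Of 5 mucous cell genes the mucin gene muc5.1 was lower in knockouts at 48 hpf (-0.94 ± 0.24, adjusted p = 0.0194), lost without sibling replicate 4 or knockout replicate 3. The mucous list's sum was 59.0 to 64.5 CPM in knockouts and 76.8 to 83.5 CPM in siblings at 48 hpf, and 68.7 to 78.7 CPM in knockouts and 72.4 to 86.8 CPM in siblings at 34 hpf. Of 13 notochord genes tbxta, the notochord's T-box factor, was called higher at both stages (0.32 ± 0.09 at 48 hpf, adjusted p = 0.0382, and 0.37 ± 0.09 at 34 hpf, adjusted p = 0.0173), and col9a1a was lower at 48 hpf (-0.54 ± 0.12, adjusted p = 0.00706). The call of tbxta at 48 hpf was lost with the replicate block (adjusted p = 0.0585) and in 7 of 8 fits with a library left out, and that at 34 hpf in 2 of 8. The notochord list's sum was 2437 to 2665 CPM in knockouts and 2638 to 3115 CPM in siblings at 48 hpf, and 2512 to 3259 CPM in knockouts and 2299 to 2689 CPM in siblings at 34 hpf.

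The hatching gland is an epithelial organ that empties as embryos hatch. Of 8 tested genes in its list, 5 were called higher in knockouts at 48 hpf and 0 at 34 hpf. At 34 hpf 2 of the 8 had an unadjusted p below 0.05 (edgeR), beside 5600 of all 24084 genes tested. At 48 hpf the hatching enzyme gene he1.1 had a log2 fold change of 1.57 ± 0.30 (adjusted p = 0.00268). The calls also took in ctslb, he1.2 and the prolactin gene prl (0.92, adjusted p = 0.0092, edgeR). Prolactin is a pituitary hormone, and prl counts among the 5 called genes and in the list's sum. The he1.2 call was lost in 3 of 8 fits with a library left out and with only the libraries compared. Its 1.59 became 0.85 without knockout replicate 1. The calls of he1.1, ctslb and prl were kept in each such fit, with ctslb ranging from 1.26 to 2.54. The list's summed level was 724 to 1647 CPM in knockouts and 392 to 614 CPM in siblings at 48 hpf, and 3403 to 4059.7 CPM in knockouts and 2717 to 3177 CPM in siblings at 34 hpf, without overlap at either stage. The sum was thus higher in knockouts at both stages, as were krt8, krt18a.1 and the sum of the junction and adhesion list. What part the hatching gland had in the values of krt8 and krt18a.1 was not tested. Of 18 other intermediate filament genes, only desma was called at 48 hpf (0.56 ± 0.16, adjusted p = 0.0349), and vim (0.43 ± 0.12, adjusted p = 0.0353) and nefma (0.43 ± 0.13, adjusted p = 0.0479) at 34 hpf, all higher in knockouts. Each of these calls was lost in 6 or more of 8 fits with a library left out.

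**Figure D5:**
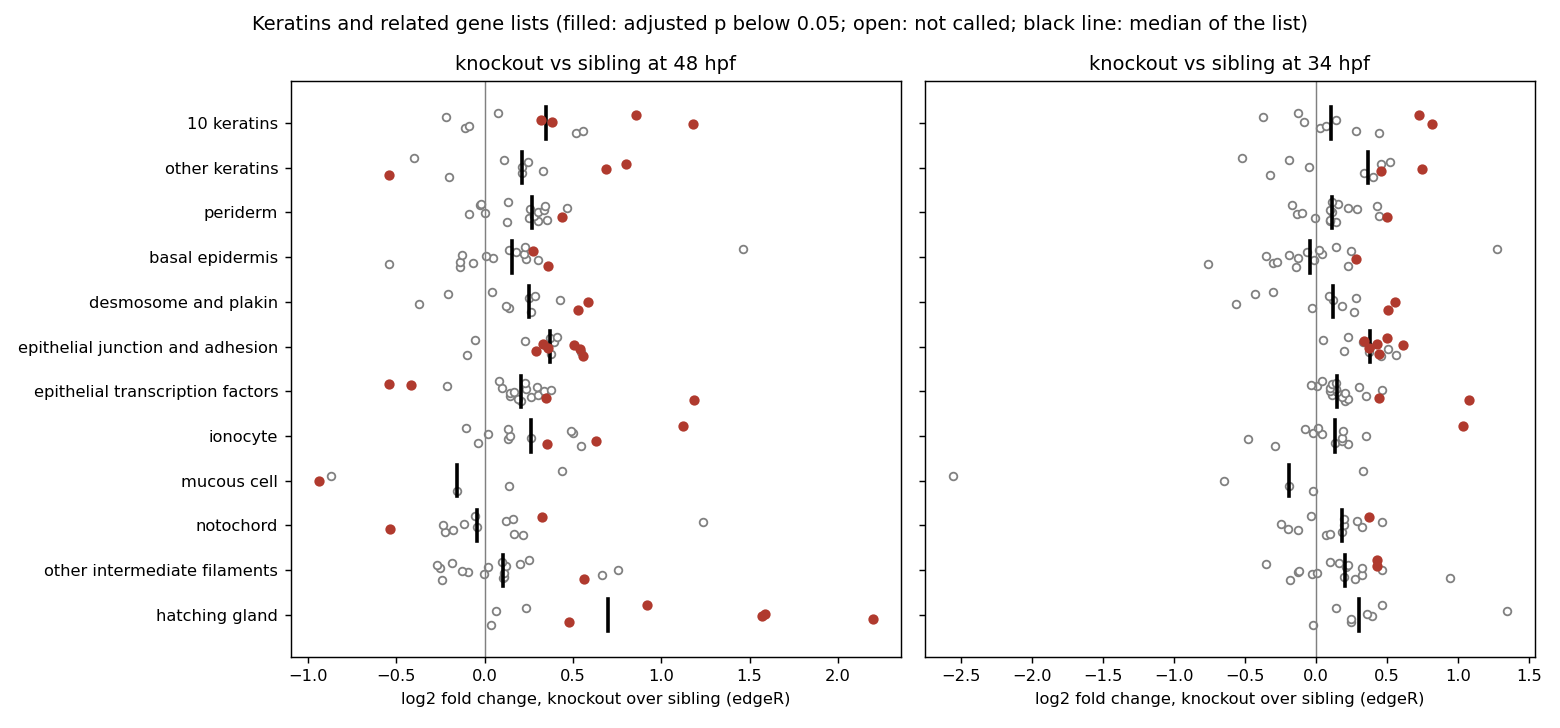
Log2 fold change, knockout over sibling, of the 10 keratins, the other keratins and 10 further gene lists at 48 hpf (left) and 34 hpf (right); each point is a tested gene, filled where the adjusted p was below 0.05, and black lines are list medians. The keratin median is 0.35 at 48 hpf and 0.11 at 34 hpf, the junction and adhesion list lies mostly right of 0 at both stages, and the axes of the panels differ.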

How the data were processed

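Libraries came from total RNA of whole embryos (TRIzol, VAHTS Universal V8 kit), per the labels' protocols. The authors deposited a table of unnormalised counts, 1 row per gene symbol. The submitters' processing notes name FastQC 0.12.1, Trim Galore 0.6.10, STAR 2.7.10b, featureCounts 2.0.6 and the build GRCz11. Not given in the sources used here are the annotation, the strand setting and how reads with several alignments were counted. Counts of close keratin copies, of cyt1 and cyt1l, and of overlapping genes are therefore uncertain.

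One model with 4 group means took in all 16 libraries (edgeR 4.0.16, filterByExpr, TMM, glmQLFit and glmQLFTest, R 4.3.3), and p-values were adjusted over all 24084 genes tested. Log2 fold changes are given with their standard errors. The scripts were tested on simulated data. Alternatives were DESeq2 1.42.0, limma-voom (limma 3.58.1), scaling in edgeR by upper quartiles or by DESeq2's size factors, a minimum CPM of 1 in 4 libraries or no filter in place of filterByExpr, a fit of the compared libraries alone, the replicate block, and the omission of each library. For each comparison these covered 10 keratins.

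The keratins, the gene lists and the tests were chosen with earlier results of these data known. All 10 keratins are named. Of each list the 4 members with the smallest p in either knockout comparison could be named, and other genes, such as epcam, cdh1 and krtt1c19e, were chosen after their values were seen. Lists are described by counts and medians, with no test of a list. All 23 keratin symbols were matched in the RefSeq table, which was used for neighbouring genes only, since its assembly is not the build of the counts. Levels were not compared between genes per length.

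Same-numbered knockout and sibling libraries of a stage deviated together from their group means, with correlations of 0.155 to 0.430. All 8 lay above 0.1, so the numbers met the criterion for pairs. Some differently numbered libraries also exceeded 0.1, while others were negative. At 34 hpf every knockout and sibling combination within replicates 1 and 2, or within 3 and 4, was positive. Every combination across these was negative. Knockout 2 and sibling 1 of 34 hpf had 0.270, and knockout 2 and sibling 3 of 48 hpf had 0.224. The criterion alone therefore does not single out pairs of the same number. In the knockout comparisons and their difference the replicate block uses this pairing. In the stage comparisons it joins libraries of 34 and 48 hpf with the same number and genotype, a pairing that was not examined. Every p-value given without naming the block comes from the fit without it. The evidence for pairing knockouts with siblings is these correlations together with the titles' repeat number, whose meaning is not stated. In only 4 of the 8 was the same-numbered sibling library the best match of the knockout library. No pair of replicates differed by less than counting noise (smallest mean ratio to it 7.47).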

Additional observations from a re-analysis of the deposited data

Results flagged for a closer look

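One group of libraries held a value far from the rest. In siblings of 34 hpf, krt18b was at 87.2 CPM in replicate 3, while the other replicates lay between 95.5 and 95.9 CPM. The gap to the nearest library took 0.948 of the group's range, beyond Dixon's 95% critical value of 0.829 for 4 libraries. Chance alone gives such a value in about 1 in 20 groups. Here it was found in 1 of the 40 groups examined, no more often than chance gives. Knockout replicate 3 of the same stage was also the lowest of its group, at 81.0 CPM.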

How the results depend on the processing

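In the knockout comparisons krt8 and krt18a.1 kept their direction and their call under all 8 alternatives and with each library left out. Among the keratins of the list, the replicate block changed only 1 call, that of cyt1 at 48 hpf (0.49, adjusted p = 0.0213). The count of keratins called at 48 hpf, 4, was 2 to 4 with each library left out, and 2 without sibling replicate 1 and without knockout replicate 4. The corresponding ranges were 2 to 2 at 34 hpf, 0 to 0 for the difference between stages, 5 to 6 for the stages in knockouts and 5 to 7 for those in siblings. Shares of all genes called were not taken for the fits with a library left out. Outside the list, leaving out knockout replicate 1 of 48 hpf lost several calls of that stage. These were cldne, cldni, desma, dsg2.1, elf3, f11r.1, he1.2, spint1a and tbxta, each also lost without some other library. Without it the log2 fold change was 0.25 for cldne, 0.67 for elf3, 0.85 for he1.2 and 0.33 for tbxta. The calls of oclna, pkp1b, esrp2, trpv6, he1.1, ctslb and prl were kept without it.

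Signs turned only for genes that were not called, and the cause was not tested. For krt15 at 34 hpf the log2 fold change was -0.043 with limma-voom and -0.031 with the replicate block. With each library left out it ranged from -0.15 to 0.20 for krt15 and from -0.040 to 0.17 for krt17 at 34 hpf, and at 48 hpf from -0.35 to 0.15 for krt17 and from -0.061 to 0.18 for krt91. For the targeted hnf4a the range was -0.26 to 0.015 at 48 hpf and -0.37 to 0.10 at 34 hpf. In the difference between stages it was -0.045 to 0.26 for krt5, -0.35 to 0.036 for krt15, -0.42 to 0.080 for krt17, -0.13 to 0.31 for cyt1 and -0.027 to 0.54 for cyt1l. For krt17 over the stages in siblings it was -0.44 to 0.0023. The stage calls that moved otherwise were krt8 in knockouts, lost with only the libraries compared, and krt18b and cyt1 in siblings, gained with only those. The median of all genes moved by at most 0.06 on the log2 scale under any scaling. With at least 540 counts of each keratin in each library, depth limits these values little beside the spread between replicates.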

Other observations

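Of 72208 counts between 1 and 9 in the table, 69.2% were even numbers. The cause was not tested. The keratins of the list, with at least 540 counts in each library, lie far above the range examined, and whether their counts are affected was not tested.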
